A study of Homo sapiens with 18 samples.

Results

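Chromatin immunoprecipitation followed by sequencing (ChIP-seq) peaks were examined at 10 genes that encode enzymes methylating lysine 9 of histone H3 (H3K9) or proteins that work with them, namely EHMT1, EHMT2, WIZ, ZNF644, SETDB1, SUV39H1, SUV39H2, CDYL, KDM1A and REST. The genes were chosen by name among 20176 annotated protein-coding genes. Every peak was taken that touched a gene body or lay within 10 kb of it, and 19 of the 22458 peaks in the 9 deposited lists did. Peaks were found at 4 of the 10 genes, and 16 of the 19 peaks lay in EHMT1 itself.

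EHMT1 (GLP) and EHMT2 (G9a) are SET-domain methyltransferases that pair with each other and place mono- and dimethylation on H3K9 (H3K9me2), a mark of silent chromatin in gene-rich regions. The zinc finger proteins WIZ and ZNF644 bind this pair and help to bring it to DNA. SUV39H1 and SUV39H2 place the trimethyl mark of constitutive heterochromatin, and SETDB1 acts mainly with zinc finger repressors on repeated elements. REST is a zinc finger repressor of neuronal genes, CDYL is a corepressor that links REST to EHMT2, and KDM1A (LSD1) is a demethylase that also belongs to REST complexes.

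The cells were LNCaP, a line from a human prostate cancer that responds to androgen. Stable lines made by lentiviral infection and puromycin selection carried V5-tagged EHMT1 under a tetracycline-inducible promoter, either wild type (WT) or with arginine in place of lysine K450 (K450R), lysine K451 (K451R) or both (K450RK451R). These 4 lines, which also keep their own EHMT1 genes, received 0.5 µg/ml doxycycline for 2 days and were precipitated with anti-V5 and anti-H3K9me2, while untreated parental cells were precipitated with anti-EHMT1. Each of the 9 groups had 2 replicates and a single peak list, and neither how the replicates entered it nor which control sample, if any, was used to call peaks is given in the sources used here. The folds, local backgrounds and estimated reads below depend on that control. Hence no value below has a replicate error, differences between lists could not be tested, and all intervals cover counting error only. Peak lists carry no expression values, so the identity of the cells could not be checked against marker genes.

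The lists held 637 to 1748 peaks, except for the K450RK451R V5 list, which held 14799. The reads behind a list, estimated from its background, ranged from 8.79 M (K450RK451R) to 27.6 M (K451R), both of them H3K9me2 lists. For V5 they were 8.84 M with WT, 11.1 M with K450R, 14.1 M with K451R and 22.7 M with K450RK451R. The weakest peak of a list had a −log10 p of 3.99 for K450RK451R V5 and between 5.42 and 6.57 for the other 8 lists. A gene can therefore have a peak in the K450RK451R V5 list at a signal that no other list would report.

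The V5 lists ask where tagged EHMT1 sits with and without the 2 lysines. Of the 10 genes, 4 had a K450RK451R V5 peak, namely EHMT1, ZNF644, SUV39H2 and CDYL. Among all protein-coding genes, 27.7% had a peak of that list in the body or within 10 kb. The window around EHMT1 was 271 kb long and that around CDYL 269 kb, compared with a median of 47.2 kb for all protein-coding genes, and of the 1068 genes with windows at least as long as that of EHMT1, 80.5% had a K450RK451R V5 peak. Nothing particular to these genes is read from the 4 in 10. WT V5 had a peak at 1 of the 10 genes, against 0.426% of all genes, and K451R V5 also at 1, against 0.639%, and in both lists the gene was EHMT1. K450R V5 had a peak at none of them, and at 0.446% of all genes.

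H3K9me2, the product of the enzyme, was mapped in the same lines. Its lists hold narrow peaks, with median widths of 141 to 143 bp. Signal spread over wider regions was not examined, so a gene without a peak is not shown to lack the mark. Each of the 4 H3K9me2 lists had a peak at 1 of the 10 genes, and this was again EHMT1. Over all protein-coding genes the share was 0.6% with WT, 0.654% with K450R, 0.986% with K451R and 0.867% with K450RK451R. Native EHMT1 in parental cells was also called at EHMT1 alone among the 10 genes, while 2.73% of all genes had such a peak. EHMT1 thus had peaks in 8 of the 9 lists, with the K450R V5 list as the exception, and 64 of the 20176 protein-coding genes (0.317%) had peaks in 8 or more lists. This share was not matched for window length, which was 271 kb for EHMT1 against a median of 47.2 kb. ZNF644, SUV39H2 and CDYL had a K450RK451R V5 peak and no other, a pattern seen in 25.3% of all genes.

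**Figure D1:**
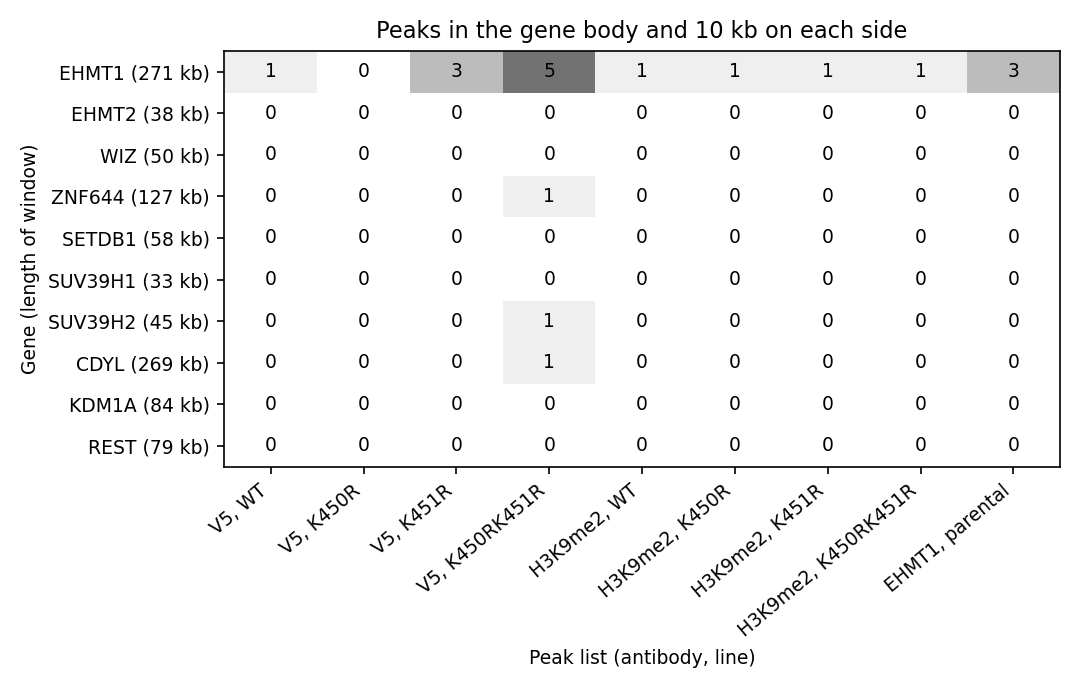
Number of peaks in the body of each gene and 10 kb on each side (rows, with the length of the window) in each of the 9 lists (columns, antibody and line). EHMT1 holds 16 of the 19 peaks, K450RK451R V5 has a further peak at each of 3 genes, and 6 genes hold none.

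The EHMT1 gene covers chromosome 9 from 140513444 to 140764468 on the plus strand (hg19) and has 52 annotated transcripts. Its canonical transcript, EHMT1-203, has 27 exons and ends at 140730579. The lysines K450 and K451, numbered from the first methionine, are encoded in exon 8. The coding strand around the altered codons is shown because these are the codons altered in the mutant constructs, with the codons of both lysines in capitals:
EHMT1 codons of K450 and K451, chr9:140648698-140648743, plus strand: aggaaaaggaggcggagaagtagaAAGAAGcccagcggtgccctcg
None of the 19 peaks overlapped an annotated exon of its gene, and the peak nearest to these codons lay 32.9 kb away. The peaks in EHMT1 fell at 3 places, in intron 2, in intron 3 and beyond the end of EHMT1-203, and each of these places is built of short sequences repeated in tandem. In 15 of the 16 peaks the 100 bp on each side of the summit matched themselves at 80% of bases or more at some shift of 10 to 100 bases. Without peaks in such repeats, WT and K451R V5, all 4 H3K9me2 lists and native EHMT1 had a peak at 0 of the 10 genes, and K450RK451R V5 at 4. The share of all protein-coding genes was not counted under this filter, so nothing particular to the 10 genes is read from these counts. The EHMT1 peak that K450RK451R V5 kept lies in the same intron 3 array as the K451R V5 and native EHMT1 peaks that were left out, and the match around its summit was 62.5%, below the 80% limit.

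**Figure D2:**
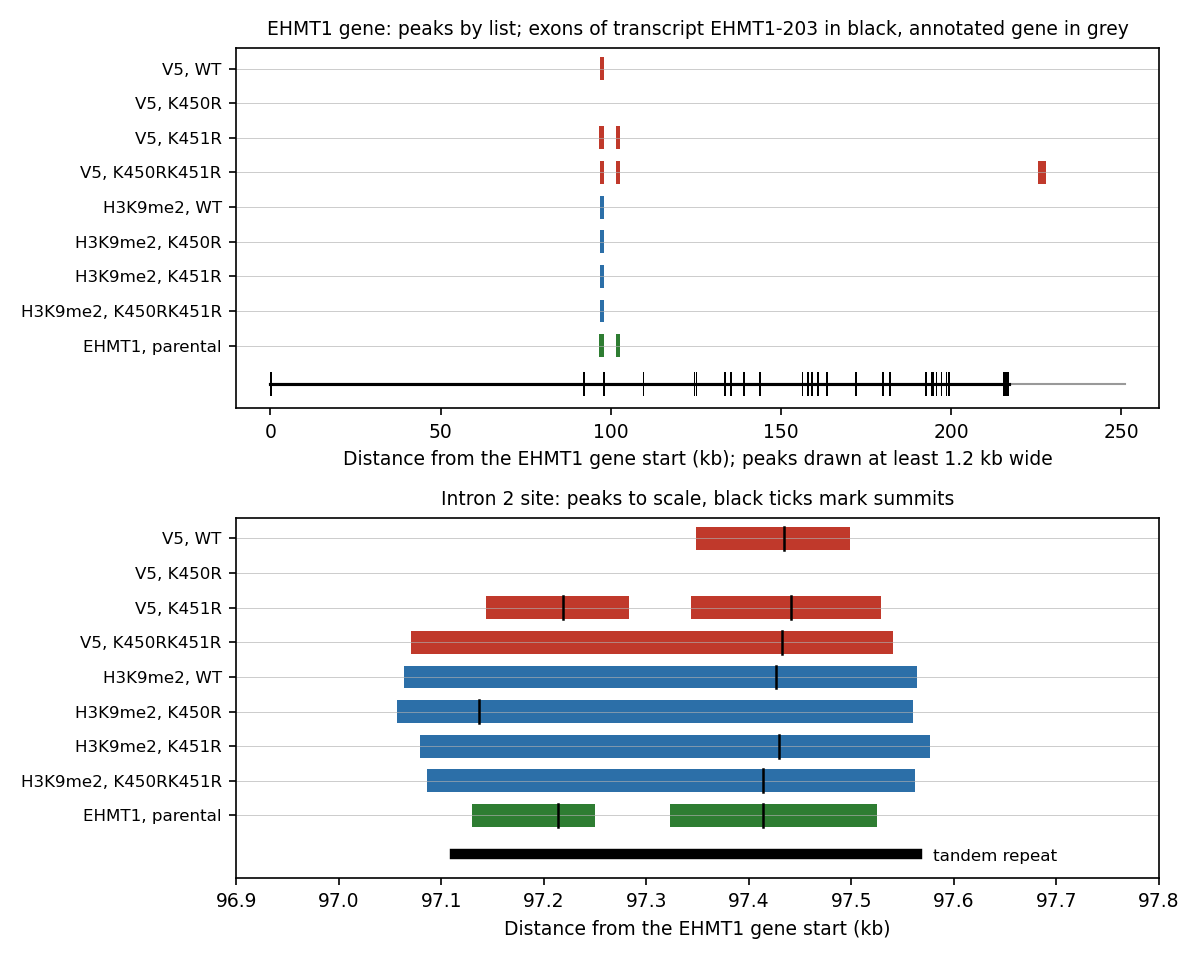
Maps of the EHMT1 gene with the peaks of each list (rows) by distance in kb from the gene start (horizontal axis). Peaks of 8 lists stack at the intron 2 site 97.1 to 97.4 kb from the start, 3 lists also have the intron 3 site, and K450RK451R V5 alone has peaks beyond the end of EHMT1-203.

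The intron 2 site carried peaks of all 8 lists, with summits 97.1 to 97.4 kb from the gene start. It covered 140610501 to 140611021, a length of 521 bp, and held 10 peaks, since K451R V5 and native EHMT1 were each called there as a pair of neighbouring peaks. The summits lay 0.494 to 0.798 kb before the start of EHMT1-251, a transcript annotated as a target of nonsense-mediated decay. The 300 bases at the site are printed because V5-tagged EHMT1, native EHMT1 and H3K9me2 were all called here, and capitals mark the most frequent string of 20 bases:
EHMT1 intron 2, chr9:140610724-140611023, plus strand: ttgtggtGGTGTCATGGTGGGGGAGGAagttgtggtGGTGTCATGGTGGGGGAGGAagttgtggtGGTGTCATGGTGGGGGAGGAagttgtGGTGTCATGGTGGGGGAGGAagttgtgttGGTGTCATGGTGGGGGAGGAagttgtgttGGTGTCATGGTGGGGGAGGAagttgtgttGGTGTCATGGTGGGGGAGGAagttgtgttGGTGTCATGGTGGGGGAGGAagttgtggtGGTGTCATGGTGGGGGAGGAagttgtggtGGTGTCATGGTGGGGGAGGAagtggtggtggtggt
The printed stretch holds 10 copies of the string. The gene holds 16 copies, all between 140610557 and 140611008, and the rest of the genome none. The site matched itself at 93.3% of bases when shifted by 29 bases. Of the 151 stretches of 51 bases around each summit, only 1 to 55 were unique in the genome. Most read positions there could thus not be told apart from other copies.

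At this site the MACS2 fold enrichment, the reads at the summit over the local background with 1 added to both, was 5.05 for WT V5 (95% interval 2.58 to 9.13, 9 reads). It was 6.55 (3.78 to 10.7, 14 reads) and 7.17 (4.34 to 11.2, 17 reads) at the neighbouring K451R V5 peaks. It was 9.09 (6.47 to 12.4, 37 reads) for K450RK451R V5. The value was lowest in WT and highest in the double mutant, but the intervals of all 4 V5 peaks overlapped. The estimated reads rose in the same order, from 8.84 M with WT to 14.1 M with K451R and 22.7 M with K450RK451R. The local background was 0.98 reads for WT, 1.29 and 1.51 for K451R and 3.18 for K450RK451R. Adding 1 lowers the ratio more where the background is low, and the part of depth in this order was not tested. The WT V5 peak ranked 650 of 652 in its list by −log10 q, at 2.62, whereas the K450RK451R V5 peak ranked 373 of 14799, at 22.03. K450R V5 had no peak here, and its nearest one lay 13641 kb upstream of the gene. The weakest peak of the K450R list had a −log10 p of 5.89, below the 7.03 of the WT peak at this site. As the WT peak rested on 9 reads, counting error could change such a call. Whether a weaker K450R V5 signal was present here was not tested. The WT V5 peak was lost as well where −log10 q had to reach 5.

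The H3K9me2 folds at the intron 2 site were above those of V5 in value, although some intervals overlapped. The fold was 12.7 (8.88 to 17.7, 33 reads) with WT and 12.5 (8.62 to 17.6, 31 reads) with K450R. It was 16.3 (12.6 to 20.8, 64 reads) with K451R and 16.5 (12.2 to 22.02, 45 reads) with K450RK451R. These 4 intervals overlapped each other. By −log10 q the site ranked 185 of 784, 200 of 815, 76 of 1256 and 71 of 907 in these lists, in the same order. The K450R line thus had the H3K9me2 peak but no V5 peak.

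Native EHMT1 in parental cells had its stronger intron 2 peak at a fold of 11.8 (8.23 to 16.4, 33 reads), which ranked 355 of 1748. The neighbouring peak had a fold of 4.06 (2.14 to 7.16, 10 reads) and was the last of the list, at rank 1748. The stronger peak overlapped in interval with every H3K9me2 peak at the site and with the K451R and K450RK451R V5 peaks, and narrowly with the WT V5 peak. Across the 10 peaks the local background was 1.72 to 5.47 times the genome background, highest for H3K9me2 in the K450RK451R line. The part of this local background in the folds was not tested.

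**Figure D3:**
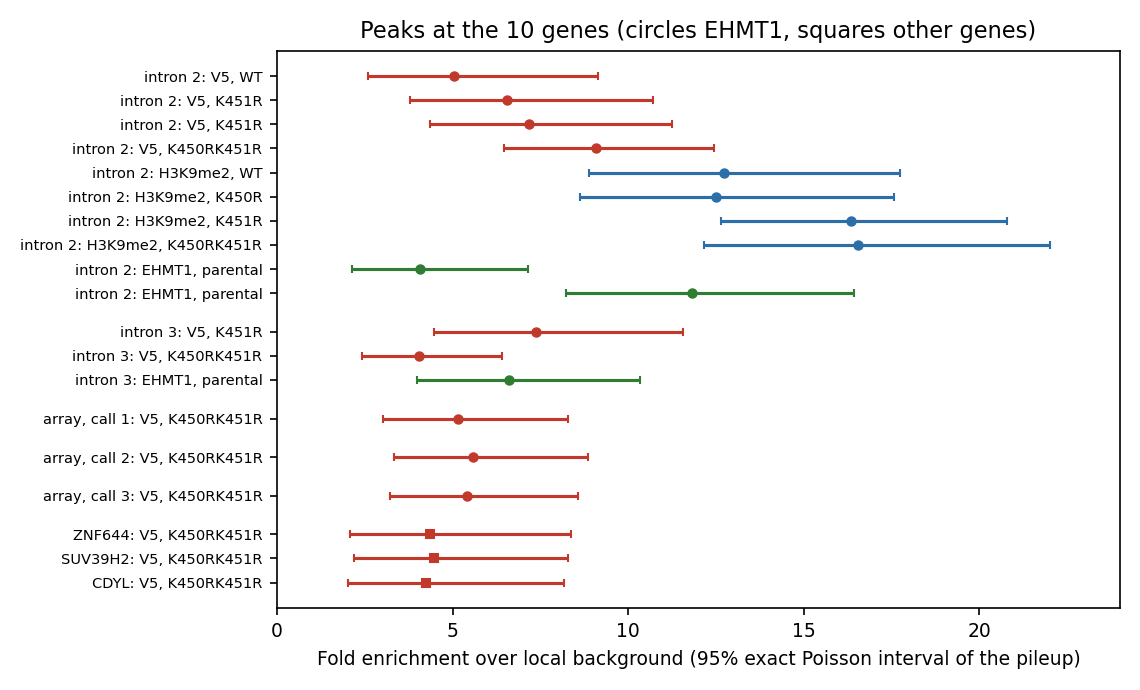
Fold enrichment (horizontal axis) with its exact Poisson 95% interval for each of the 19 peaks, grouped by gene and site. H3K9me2 at the intron 2 site of EHMT1 lies at 12.5 to 16.5, V5 at the same site at 5.05 to 9.09, and the single peaks of ZNF644, SUV39H2 and CDYL at 4.23 to 4.46.

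The intron 3 site, from 140615589 to 140615792, was called in the K451R V5, K450RK451R V5 and native EHMT1 lists. The WT and K450R V5 lists and the H3K9me2 lists had no peak there, and whether they held weaker signal was not tested. The fold was 7.38 (4.47 to 11.6, 17 reads) for K451R V5, 4.04 (2.41 to 6.41, 16 reads) for K450RK451R V5 and 6.59 (3.99 to 10.3, 17 reads) for native EHMT1. Their intervals overlapped. The sequence, chosen for printing after its values were seen, is shown for comparison with intron 2, again with its most frequent string of 20 bases in capitals:
EHMT1 intron 3, chr9:140615608-140615808, plus strand: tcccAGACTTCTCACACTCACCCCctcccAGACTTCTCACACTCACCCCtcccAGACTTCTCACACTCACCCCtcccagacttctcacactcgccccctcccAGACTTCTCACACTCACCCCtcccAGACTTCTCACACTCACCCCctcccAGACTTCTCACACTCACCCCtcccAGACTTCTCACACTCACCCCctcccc
The gene holds 8 copies of this string within 215 bp and the rest of the genome none, and the site matched itself at 87.7% of bases at a shift of 49 bases.

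The remaining 3 peaks in EHMT1 belonged to K450RK451R V5 alone and lay 8.93 to 10.2 kb past the end of EHMT1-203, in an intron of 1 of the 52 transcripts. Their folds were 5.14 (3.02 to 8.28, 15 reads), 5.57 (3.33 to 8.85, 16 reads) and 5.40 (3.22 to 8.57, 16 reads). All 3 lay in a single array with a period of 62 bases. The first is printed, also chosen after its values were seen, with its most frequent string of 20 bases in capitals:
EHMT1 past the end of EHMT1-203, chr9:140739631-140739831, plus strand: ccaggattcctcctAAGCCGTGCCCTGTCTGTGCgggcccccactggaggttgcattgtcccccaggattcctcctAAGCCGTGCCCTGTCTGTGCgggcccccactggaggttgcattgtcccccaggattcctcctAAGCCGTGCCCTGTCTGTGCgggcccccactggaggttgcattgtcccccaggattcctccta
The string occurs 23 times over 1393 bp in the gene and 2 times elsewhere in the genome. No stretch of 51 bases, the length of a read, was unique in the genome at these 3 summits, so reads there cannot be placed at a single copy of the repeat.

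ZNF644, a zinc finger partner of the EHMT1 and EHMT2 pair, had its single K450RK451R V5 peak in intron 2, at chr1:91443775-91443944. The fold was 4.35 (2.07 to 8.38, 7 reads), and 147 of the 151 stretches of 51 bases around the summit were unique. The −log10 q of 2.09 ranked 12157 of 14799.

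SUV39H2, a trimethylating enzyme, had its peak in intron 2, with a fold of 4.46 (2.20 to 8.30, 8 reads) and a −log10 q of 2.38. No stretch of 51 bases around the summit was unique, and its stretches of 21 bases occurred a median of 47145 times in the genome.

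CDYL, the corepressor linking REST to EHMT2, had its peak in intron 1 of CDYL-203, at chr6:4891603-4891702 and 1.39 kb from the start of CDYL-202. The fold was 4.23 (2.02 to 8.16, 7 reads) and the −log10 q 2.09, and all 151 stretches of 51 bases were unique. The peaks at ZNF644, SUV39H2 and CDYL were below the median of their list in both fold (4.89) and −log10 q (3.20). They rested on 7 or 8 reads, where the lowest number called in that list was 6. None of the 3 remained at a −log10 q of at least 5, or with 1 minimum of −log10 p (6.57) for all lists.

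No peak of any list was found at EHMT2, WIZ, SETDB1, SUV39H1, KDM1A or REST. EHMT2 lies at chr6:31847536-31865475, WIZ at chr19:15530789-15560767, SETDB1 at chr1:150898739-150937220, SUV39H1 at chrX:48553945-48567407, KDM1A at chr1:23345936-23410182 and REST at chr4:57774042-57832974. Over the genome 71.0% of protein-coding genes had no peak in any list. The nearest K450RK451R V5 peak was 26.2 kb upstream of EHMT2, the closest to any of these 6 genes, and 41.5 kb downstream of REST. It was 73.0 kb upstream of SUV39H1, 82.9 kb downstream of SETDB1, 147.9 kb downstream of KDM1A and 386.5 kb upstream of WIZ. All 19 peaks inside the limit lay within the gene bodies themselves.

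Native EHMT1 was thus called at the gene of EHMT1, in tandem repeats alone, and not at those of its partners. Among all protein-coding genes 2.73% had such a peak, so nothing particular to the partners is read from this. The nearest native EHMT1 peak was 173.9 kb from WIZ, 207.7 kb from ZNF644 and 586.2 kb from EHMT2. Between 91.0% (SETDB1) and 98.0% (SUV39H1) of the stretches of 51 bases in the 10 windows were unique, with 92.5% at EHMT1, so most of each gene could be covered by reads of this length. Around the summits of the EHMT1 peaks themselves the share was lower, at most 68.2%.

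**Figure D4:**
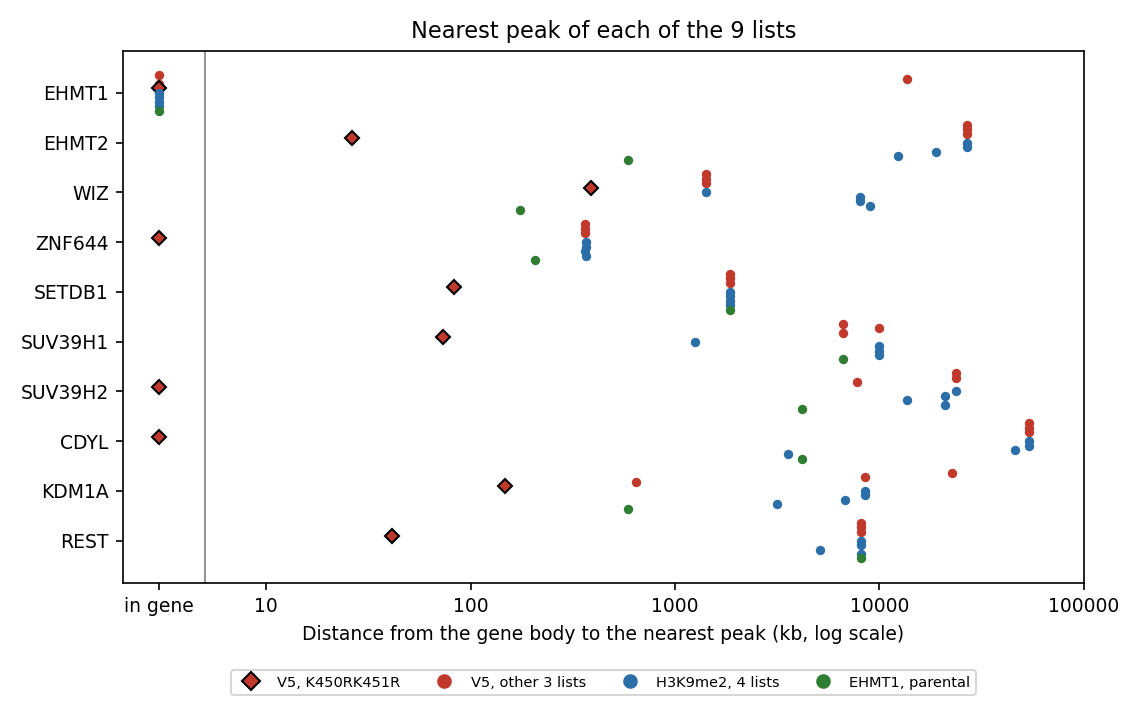
Distance in kb (horizontal log axis) from each gene to the nearest peak of each list, with peaks in the gene body drawn at the left edge. EHMT1 has a peak inside in 8 lists, and the closest peak of a gene without any is 26.2 kb from EHMT2.

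A wider set of 39 genes was examined in the same way. It comprised other H3K9 methyltransferases and cofactors, H3K9 demethylases, readers of the mark, REST and CoREST partners and the E2F6 complex. K450RK451R V5 had a peak at 17 of the 39 genes (43.6%), against the 27.7% of all genes given above. By group these were 3 of 5 methyltransferases and cofactors, 5 of 8 demethylases and 2 of 7 readers. The others were 4 of 11 REST and CoREST partners and 3 of 8 members of the E2F6 complex. Of genes with windows at least as long as that of EHMT1, 80.5% had a K450RK451R V5 peak. The windows of the 39 genes were not compared in length with those of all genes. Nothing particular to this set is read from the 43.6%. Native EHMT1 had a peak at 2 of the 39 (5.13%), against 2.73% of all genes. WT, K450R and K451R V5 and H3K9me2 in the WT line had a peak at 1 each (2.56%). Of all genes, 0.426%, 0.446%, 0.639% and 0.6% had a peak in these lists, in the same order. The other 3 H3K9me2 lists had a peak at none, against 0.654% (K450R), 0.986% (K451R) and 0.867% (K450RK451R) of all genes. Nothing particular to the set is read from these small counts either.

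SIN3B, a scaffold of histone deacetylase complexes, was the single gene of the 39 with peaks in several lists, 6 in all. They lay in intron 14, and the upstream one of its sites had folds of 9.09 to 12.02. Unlike EHMT1, it was called in the K450R V5 list, at 11.4 (7.14 to 17.2, 20 reads). KDM3A, an H3K9 demethylase, had a K450RK451R V5 peak in exon 1, 0.848 kb from the gene start, at 5.98 (3.15 to 10.5, 10 reads). E2F6, a repressor of cell cycle genes, had one in exon 1, 0.27 kb from the start, at 4.55 (2.25 to 8.47, 8 reads). KDM3A and E2F6 are named here because their summits lay within 1 kb of the gene start. None of the peaks at the 10 genes lay as close to the start of its gene. However, 10 of the 19 lay within 1 kb of the start of an annotated transcript. All 10 were peaks of the intron 2 site of EHMT1, called in 8 lists, and thus mark a single place in a single gene.

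**Figure D5:**
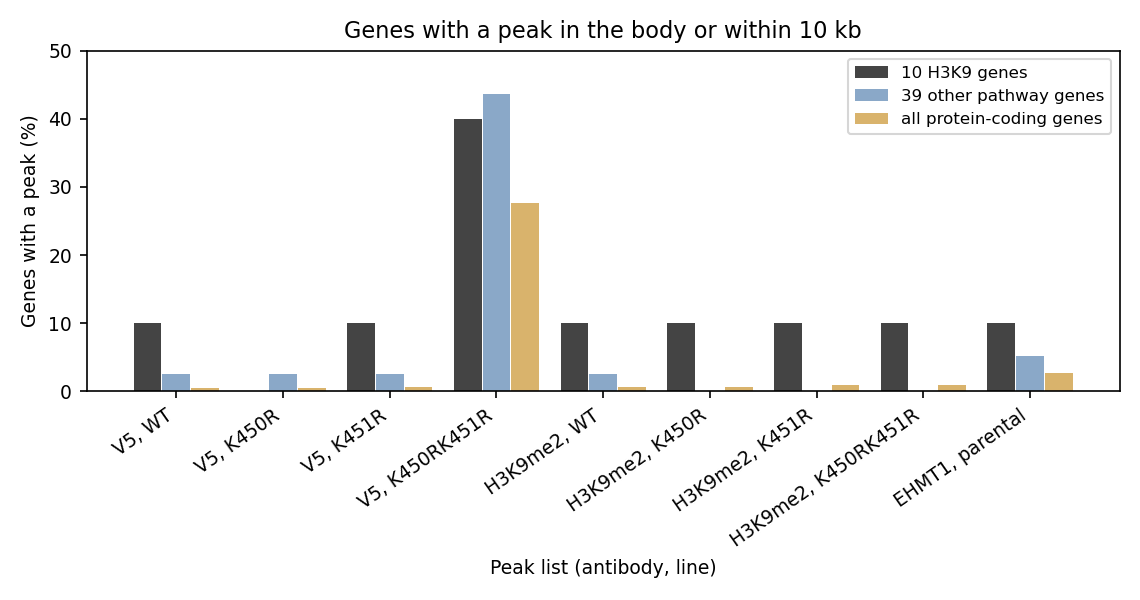
Share of genes (percent) with a peak in each list, for the 10 genes, the 39 further genes and all 20176 protein-coding genes. K450RK451R V5 reaches 4 of the 10 genes, 43.6% of the 39 and 27.7% of all genes, with window lengths not matched.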

How the data were processed

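ChIP-seq of 18 LNCaP samples, 2 replicates in each of 9 groups, was deposited as 1 narrowPeak list per group. Per the labels and submitters' processing notes, the authors used FastQC 0.11.9, BWA 0.7.9a, SAMtools 1.2 and MACS2 2.1.0 on hg19, and whether replicates were pooled is not stated. The deposited values are a ratio (fold enrichment), −log10 p, −log10 q and a score. Coordinates are 1-based, and genes come from GENCODE release 44 mapped to hg19.

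Peaks overlapping a gene body or 10 kb on each side by at least 1 bp were counted. Summit read numbers and local backgrounds were solved from fold and −log10 p, tested on simulated data, and gave exact Poisson 95% intervals, which cover counting error only. Depth was estimated from the lowest background with an effective genome of 2.7 Gb and 100 bp extension. A 201-bp summit window was called a tandem repeat where it matched itself at 80% of bases or more at a shift of 10 to 100 bases. Uniqueness of stretches of 51 and 21 bases was counted on both strands of the genome. The software was Python 3.11.15, numpy 2.4.6, scipy 1.17.1, pandas 2.3.3, pysam 0.24.0 and numba 0.67.0.

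The 10 genes and the wider list were chosen with earlier results of these data known. All 10 genes and each of their peaks are given, and of the 39 others those with peaks in 2 or more lists or a summit within 1 kb of the gene start. With 1 list per group, no test between groups was made. Sequences are printed for 3 of the places in EHMT1 and those of the other peaks are not reported here.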

Additional observations from a re-analysis of the deposited data

How the results depend on the processing

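For each list the number of the 10 genes with a peak and the number of peaks were recomputed, together with the sites shared between lists, giving 202 values for 20 results, of which 163 stayed within 1.5 times the reported value and 39 did not. None moved that far with the gene body alone, 50 kb on each side, the summit in the window, the span of coding transcripts, or sites joined by summits within 250 bp. However, 50 kb on each side took K450RK451R V5 from 4 to 6 genes and from 8 to 12 peaks, just at the limit. The genes added were EHMT2 and REST, so their lack of a peak depends on the distance used. At −log10 q of at least 5, WT V5 had 0 genes and 0 peaks and K450RK451R V5 had 1 gene and 3 peaks. At −log10 q of at least 10, and likewise with the 637 strongest peaks of each list, WT and K451R V5 had 0 genes and 0 peaks, K450RK451R V5 had 1 gene and 1 peak, and native EHMT1 had 1 peak. At a fold of at least 5, K450RK451R V5 had 1 gene and 4 peaks. With peaks holding a unique stretch of 51 bases it had 4 peaks. With reciprocal overlap of 50%, the most lists at 1 site were 5 in place of 8. For the following alternatives, chosen after seeing the data, K450RK451R V5 had 1 gene and 5 peaks at a common −log10 p of at least 6.57. Without peaks in tandem repeats it had 4 peaks, and WT and K451R V5, all 4 H3K9me2 lists and native EHMT1 had 0 genes and 0 peaks. The EHMT1 peak that K450RK451R V5 kept lies in the same intron 3 array as peaks left out of the K451R V5 and native EHMT1 lists, with its summit window below the 80% limit. The shares of all protein-coding genes were not recounted under these alternatives.

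No paired analysis was possible because only 1 list per group was given, with no values per replicate, and the results come from no test. Leaving out a replicate was not run for the same reason. Depth differed between lists, and a signal below a list's threshold is not shown to be absent.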

Other observations

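Tandem repeats were frequent among the peaks of every list, not at EHMT1 alone. The summit window was a tandem repeat for 13.9% of WT, 14.8% of K450R and 16.1% of K451R V5 peaks, and for 4.66% of K450RK451R V5 peaks. For H3K9me2 the share was 17.0% with WT, 18.6% with K450R, 20.4% with K451R and 25.4% with K450RK451R, and for native EHMT1 it was 11.3%. Windows of the same length placed every 50 kb along the chromosomes were tandem repeats in 107 of 57168 cases (0.187%). Windows placed every 1 kb were so in 8 of 1059 cases (0.755%) over the 10 genes, and 7 of those 8 lay among the 271 windows of EHMT1 (2.58%). Peaks in all 9 lists were found at 46 protein-coding genes.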
